A study of Mus musculus with 4 samples.

Results

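The transcripts of 8 genes of the SUMO conjugation pathway were followed in cultured mouse rib chondrocytes that did or did not carry a deletion of the SUMO protease gene Senp6. The 8 genes were chosen by name. They are the modifiers Sumo2 and Sumo3, the activating enzyme subunits Sae1 and Uba2, and the PIAS family ligases Pias1, Pias2, Pias3 and Pias4. They made up 8 of the 18298 genes detected in 1 or more samples, and all 8 were among the 14123 genes abundant enough to be tested.

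Small ubiquitin-like modifiers (SUMO) are proteins that are attached to lysines of other proteins, many of them in the nucleus. A heterodimeric activating enzyme (E1) made of SAE1 and UBA2 charges the modifier, a conjugating enzyme (E2) takes it over, and ligases (E3) such as the PIAS proteins help to pass it to substrates. SUMO2 and SUMO3 are close relatives that form chains. SENP6 is a protease that cuts chains of SUMO2 and SUMO3, so it acts on the products of the enzymes described here.

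The mutant group (Mut) carried Dermo1-Cre and Senp6f/f, and the control group (WT) carried Senp6f/f without the Cre. Each had 2 samples, all on the C57BL/6 background. The cells came from the cartilage of rib cages dissected from E18.5 embryos and had been passaged to P1, and poly(A) RNA was sequenced. Dermo1-Cre is expressed in mesenchymal progenitors of the skeleton, so recombination is limited to their descendants, and any unrecombined cells in the culture remain in the Mut samples. The sex-linked transcripts given below differ between the Mut replicates, which therefore came from different embryos. The labels do not say the same of the WT replicates, although the study counts its replicates as biological, so the spread between the WT samples may be technical.

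Between 21007449 and 30983806 reads fell on the tested genes in each sample, and the members had between 764 and 7026 reads. In these bulk samples fewer cells of a type and less RNA per cell cannot be told apart. Senp6 itself had an RPKM (read count scaled by gene length and by the reads on all genes) of 10.8 and 18.0 in WT and of 12.0 and 8.07 in Mut, so the groups overlapped. Its count covers the whole gene, not the floxed exons alone, and does not check the deletion. The summed RPKM of 10 chondrocyte markers was 930 and 932 in WT and 499 and 619 in Mut, with every marker above 1 RPKM in some sample. Most of it was Col2a1, at 609 and 659 in WT and 334 and 445 in Mut. Sox5 ran the other way (1.56 and 2.31 in WT, 2.34 and 2.81 in Mut), and Sox6 overlapped between genotypes. The sum of 8 striated muscle markers was 92.5 and 31.8 in WT and 154 and 169 in Mut, although Tnnt3 and Ckm overlapped between genotypes. The sum of 6 osteoblast markers was 186 and 83.1 in WT and 31.5 and 52.6 in Mut, with 2 of them under 1 RPKM in every sample. Markers of blood and macrophages summed to between 4.09 and 6.76 RPKM, of endothelium to between 0.762 and 1.30, and of keratinocytes to at most 0.453. The part of these differences in the values of the SUMO genes was not tested. Mut replicate 2 stood apart by its sex-linked transcripts, with Xist at 22.4 RPKM against at most 0.011 in the other samples and the Y-linked Ddx3y at 0.0229 against at least 8.39. The part of this difference in the values of the 8 genes was not tested.

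The coding sequences of Sumo2 and Sumo3 are related. A stretch of each is shown to see how far reads from these sequences can be told apart. Sumo2 has 285 coding bases and Sumo3 has 330, stop codon not counted, and 232 of 282 aligned bases (82.3%) are identical. The gene lengths listed with the counts are 998 bases for Sumo2 and 2493 for Sumo3, and sequence outside the coding part was not compared. The stretch covers coding bases 120 to 209 of Sumo2 and 117 to 206 of Sumo3 (GENCODE transcripts, GRCm38, coding strand, written 5′ to 3′), and capitals mark the 14 bases that differ between them.
Sumo2: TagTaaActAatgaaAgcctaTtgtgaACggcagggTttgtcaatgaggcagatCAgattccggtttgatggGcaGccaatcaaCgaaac
Sumo3: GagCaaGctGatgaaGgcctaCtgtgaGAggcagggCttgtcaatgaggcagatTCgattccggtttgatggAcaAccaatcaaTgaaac
Differences are spread along the stretch, and the longest run of identical bases in the whole alignment is 17. None of the 255 overlapping 31-base words of the Sumo2 coding sequence occurs in that of Sumo3. Other annotated genes come closer. For Sumo2, 7 annotated copies hold at least 50% of its coding 31-base words, and the processed pseudogene Gm10241 holds 100% of them. For Sumo3 the only gene past 50% is Gm49325, at 64.0%, which is annotated not as a pseudogene but with a transcript of the nonsense-mediated decay class. None of these genes is listed under its GENCODE name in the count files, where a gene without reads is absent. Whether they could be counted at all is not known. The counts of Sumo2 and Sumo3 may include or have lost reads that fit these genes equally well. No such gene was found for Sae1, Uba2 or any PIAS gene.

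In the GENCODE annotation of GRCm38, Sumo2 lies at chr11:115523102-115536276 on the minus strand with 4 exons, and Sumo3 at chr10:77606097-77618331 on the plus strand with 4 exons. Both E1 genes are on the minus strand of chromosome 7, Sae1 at chr7:16320234-16387806 with 9 exons and Uba2 at chr7:34140688-34169599 with 17 exons. Pias1 lies at chr9:62878368-62987924 on the minus strand with 14 exons, and Pias3 at chr3:96696384-96706070 on the plus strand with 14 exons. Pias4 lies at chr10:81153266-81167923 on the minus strand with 11 exons.

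All 8 genes were expressed in every sample, and the 4 PIAS genes lay below the modifiers and E1 subunits in each. On the RPKM scale, which allows genes of different length to be compared, Sumo2 was the highest of the 8 in every sample. Its mean was 188 ± 29.3 in WT and 231 ± 5.41 in Mut (SD, n = 2 each). It stood at or above 97.8% of the tested genes in WT and 98.2% in Mut. Sumo3, Sae1 and Uba2 formed a middle tier, and the PIAS genes a lower tier.

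The order within the middle tier was not fixed. In WT the ranges of Sumo3 (49.8 to 52.1 RPKM), Sae1 (47.9 to 66.9) and Uba2 (34.0 to 50.2) ran into each other. Sumo3 exceeded Sae1 in 3 of 4 samples, while Sae1 exceeded Uba2 in 4 of 4. Among the ligases the order was Pias3, Pias4, Pias2 and Pias1 in each of the 4 samples. Pias2 and Pias1 were neighbours whose WT ranges overlapped (10.6 to 14.1 and 9.87 to 11.4 RPKM).

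**Figure D1:**
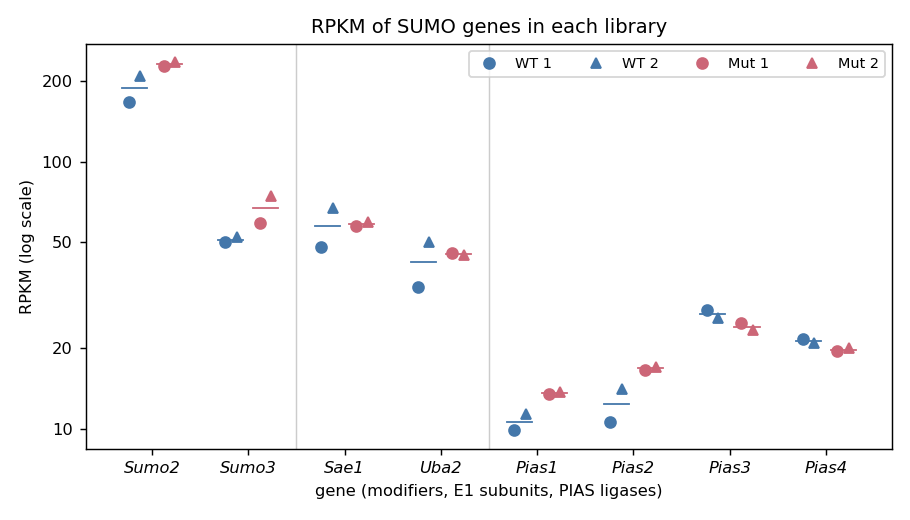
RPKM (log axis) of each of the 8 genes in the 2 WT (blue) and 2 Mut (red) libraries. Circles are replicate 1, triangles replicate 2 and bars the group means. Both Mut points lie above both WT points for Sumo2, Sumo3, Pias1 and Pias2, below them for Pias3 and Pias4, and between them for Sae1 and Uba2.

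None of the 8 genes passed the test between genotypes. In the quasi-likelihood test of edgeR, with p-values adjusted over all 14123 genes, 0 of 8 members were called at 0.05. The background was 0.0% of all genes in either direction, so the test called no gene at all. At an unadjusted p under 0.05, 3 of 8 members (Sumo3, Pias1 and Pias2, all higher in Mut) passed, as did 15.6% of all genes in either direction and 9.29% on the higher side. DESeq2 called 3.07% of genes higher and 1.86% lower, and 0 of 8 members in either direction. Blocking on replicate in edgeR, 0.595% of genes were called higher and 0.234% lower, and again 0 of 8 members. Taken a gene at a time, the 95% intervals of the 8 fold changes lay between 0.699-fold and 1.71-fold. They are not adjusted for reading 8 genes together, and larger changes are not excluded.

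By direction the 8 genes fell into 3 groups. In 4 of 8 (Sumo2, Sumo3, Pias1 and Pias2) both Mut samples lay above both WT samples, against 25.4% of all genes. In 2 of 8 (Pias3 and Pias4) both lay below, against 22.8% of all genes. Together 6 of 8 did not overlap between genotypes, against 48.1% of all genes. In Sae1 and Uba2 both Mut samples fell between the WT samples. The median log2 fold change of the 8 was 0.157, against 0.00971 for all genes tested. The median size, ignoring sign, was 0.227 against 0.200 over the 14074 tested genes with a read in every sample, and 0.143 over the 4730 genes in the same range of abundance.

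**Figure D2:**
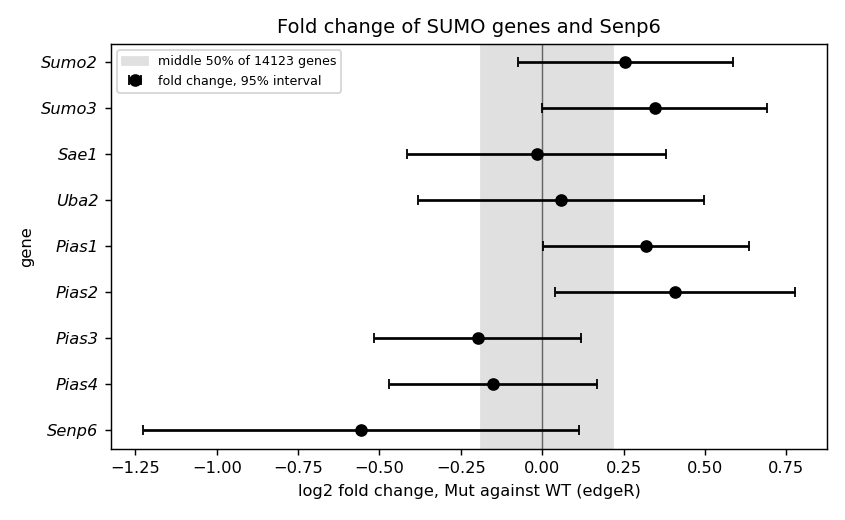
Log2 fold change of Mut against WT (edgeR) with its 95% interval for the 8 genes and Senp6. The grey band holds the middle 50% of all 14123 tested genes. Sumo2, Sumo3, Pias1 and Pias2 lie to the right of the band, Sae1 and Uba2 near 0, and the intervals of Sumo3, Pias1 and Pias2 just clear 0 before adjustment for the number of genes.

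The modifiers came out higher in Mut, by an amount that did not pass the test. Sumo2 had 167 and 209 RPKM in the WT samples and 227 and 235 in the Mut samples. The Mut samples were close together and the WT samples were not, the lower of them being replicate 1. Its fold change was 1.19 (95% interval 0.949 to 1.50, adjusted p = 0.445 in edgeR). On the log2 scale this was 0.26 (SE 0.14), and the WT replicates differed from each other by the same 0.26. Without WT replicate 1 the log2 fold change was 0.13, and without WT replicate 2 it was 0.37.

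Sumo3 showed the opposite spread. Its RPKM was 49.8 and 52.1 in WT and 59.1 and 74.6 in Mut. Here the WT samples were alike, within 0.01 on the log2 scale, and the Mut samples differed by 0.30, replicate 2 being the higher. The fold change was 1.27 (adjusted p = 0.320 in edgeR), or 0.35 on the log2 scale (SE 0.14, 95% interval 0.00046 to 0.69). Without Mut replicate 2 the log2 fold change was 0.19, and without Mut replicate 1 it was 0.49.

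The balance of the paralogues was similar in both genotypes. Sumo2 made up 77.1% and 80.0% of the summed Sumo2 and Sumo3 RPKM in WT, and 79.4% and 75.9% in Mut. The groups overlapped, with means of 78.5 ± 2.10% and 77.6 ± 2.45% (two-sided exact permutation test, p = 0.667, where 2 against 2 samples cannot go below 0.333). The sum of both modifiers was 217 and 261 RPKM in WT and 286 and 309 in Mut.

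The E1 subunits differed between the WT replicates and not detectably between genotypes. Sae1, which forms the adenylating enzyme with UBA2, had 47.9 and 66.9 RPKM in WT and 57.4 and 59.2 in Mut. Uba2, which carries the catalytic cysteine, had 34.0 and 50.2 RPKM in WT and 45.3 and 44.7 in Mut. In both genes WT replicate 1 was the lowest and WT replicate 2 the highest of all 4 samples.

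The log2 fold change was -0.02 for Sae1 (SE 0.17, adjusted p = 0.975 in edgeR) and 0.06 for Uba2 (SE 0.18, adjusted p = 0.915 in edgeR). The 95% intervals of the fold changes ran from 0.750 to 1.30 for Sae1 and from 0.768 to 1.41 for Uba2. Changes within these ranges remain possible for each gene taken alone. The sign turned with the control sample left out. Without WT replicate 2 Sae1 was higher in Mut by 0.18, and without WT replicate 1 Uba2 was lower, at -0.18.

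The subunits of the E1 are encoded by separate genes but differed alike between the WT replicates. The WT replicates differed by 0.42 in Sae1 and 0.51 in Uba2 on the log2 scale, both with replicate 1 lower. The ratio of Uba2 to Sae1 RPKM therefore varied little, at 0.709 and 0.751 in WT and 0.789 and 0.755 in Mut. The ratio of the summed modifiers to the summed E1 subunits was 2.65 and 2.23 in WT and 2.79 and 2.98 in Mut. Both ratios were higher in both Mut samples than in either WT sample. They were among 13 sums, shares and ratios compared. With 2 samples a group, a two-sided exact permutation test of them cannot go below p = 0.333.

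The PIAS ligases split into pairs. PIAS proteins bind the charged E2 and a substrate, often a transcription factor, and PIAS1 and PIAS3 are known as inhibitors of activated STAT factors. Pias1 and Pias2 were higher in both Mut samples than in both WT samples, and Pias3 and Pias4 were lower, with no difference that passed the test.

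Pias2 had the lowest p of the 8 genes. Its RPKM was 10.6 and 14.1 in WT and 16.6 and 17.1 in Mut. The fold change was 1.33 (95% interval 1.03 to 1.71), the unadjusted p 0.0349 and the adjusted p 0.271 in edgeR. A larger log2 fold change in size than its 0.41 (SE 0.15) was seen in 25.3% of all genes. The WT replicates differed by 0.35, with replicate 1 the lower.

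Pias2 was also the member whose call turned on 1 library. Without WT replicate 2 its log2 fold change was 0.56 and its adjusted p 0.0108 in edgeR, but in that fit 9.25% of all genes were called higher and 10.3% lower. Without WT replicate 1 the values were 0.24 and 0.392. Without WT replicate 1, Mut replicate 1 or Mut replicate 2, 0 of 8 members were called. In those fits 3.55%, 1.98% and 0.496% of all genes were called higher and 0.999%, 0.634% and 0.27% lower. In fits without a WT replicate the single remaining WT sample is taken to vary as the Mut samples do.

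Pias1 had 9.87 and 11.4 RPKM in WT and 13.5 and 13.7 in Mut. The log2 fold change was 0.32 (SE 0.13, adjusted p = 0.318 in edgeR), a 1.25-fold difference with a 95% interval of 0.0025 to 0.64 on the log2 scale. The WT replicates were 0.15 apart and the Mut replicates 0.01, so the difference between genotypes was larger than either spread.

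Pias3, the most abundant of the ligases, ran the other way. It had 27.8 and 25.95 RPKM in WT and 24.9 and 23.4 in Mut, with a log2 fold change of -0.20 (SE 0.13, adjusted p = 0.544 in edgeR). Pias4 had 21.7 and 20.9 RPKM in WT and 19.5 and 20.0 in Mut, with a log2 fold change of -0.15 (SE 0.13, adjusted p = 0.650 in edgeR). The 95% intervals of the fold changes, 0.699 to 1.09 for Pias3 and 0.722 to 1.12 for Pias4, included 1. Leaving out a sample at a time moved the log2 fold change of Pias3 between -0.12 (without WT replicate 1) and -0.30 (without WT replicate 2), and that of Pias4 between -0.10 and -0.23 (the same samples).

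The total of the 4 ligases stayed narrow while its make-up differed. The summed PIAS RPKM was 70.1 and 72.3 in WT and 74.5 and 74.3 in Mut. Pias1 and Pias2 together took 29.3% and 35.2% of it in WT and 40.5% and 41.5% in Mut. The means were 32.2 ± 4.18% and 41.0 ± 0.753% (SD, n = 2 each), and the groups did not overlap. The pair holds the ligases that were higher in both Mut samples, while the others were lower. The separation of the pooled share therefore follows from this grouping and is no further support.

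None of the 4 shares overlapped between genotypes. They are parts of the same total, so a higher share of some ligases lowers that of the others. The share of Pias1 was 14.1% and 15.7% in WT and 18.2% and 18.5% in Mut, and that of Pias2 was 15.2% and 19.5% against 22.3% and 23.0%. The share of Pias3 was 39.7% and 35.9% in WT and 33.4% and 31.5% in Mut, and that of Pias4 was 30.96% and 28.9% against 26.2% and 26.9%. Within WT, replicate 2 lay nearer to the Mut samples than replicate 1 did for all 4 shares. With 2 samples a group a two-sided exact permutation test of these shares cannot go below p = 0.333.

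**Figure D3:**
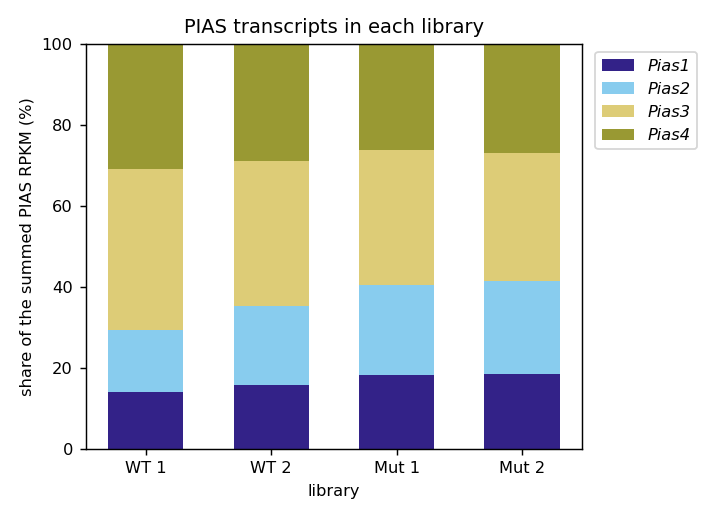
Share of each ligase gene in the summed RPKM of the 4 PIAS genes (percent, stacked) in the 2 WT and 2 Mut libraries. Pias1 and Pias2 (lower segments) fill 29.3% and 35.2% in WT and 40.5% and 41.5% in Mut, with the step between the WT libraries a little larger than that between WT 2 and Mut 1.

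The spread within genotypes was uneven across the 8 genes. The WT replicates were further apart than the Mut replicates in 7 of 8 genes, Sumo3 being the exception. The median difference between replicates was 0.211 in WT and 0.0126 in Mut on the log2 scale. Over the 4730 genes of similar abundance the same medians were 0.207 and 0.105. In 3 of 8 genes (Sumo2, Sae1 and Uba2) the WT replicates differed by more than the genotypes did, against 53.9% of all genes.

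Differences beyond counting error between the WT replicates were about as common among the 8 genes as among others. Set against the standard error expected from the read counts alone, the WT replicates differed by more than 2 such errors in 6 of 8 genes, up to 12.0 in Uba2, against 74.0% of the genes of similar abundance. The Mut replicates did so in 2 of 8 genes, Sumo3 at 10.2 and Pias3 at 2.79, against 56.2% of the genes of similar abundance. The other 6 genes agreed between the Mut replicates within counting error. WT replicate 1 was below WT replicate 2 in 6 of 8 genes, all but Pias3 and Pias4.

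**Figure D4:**
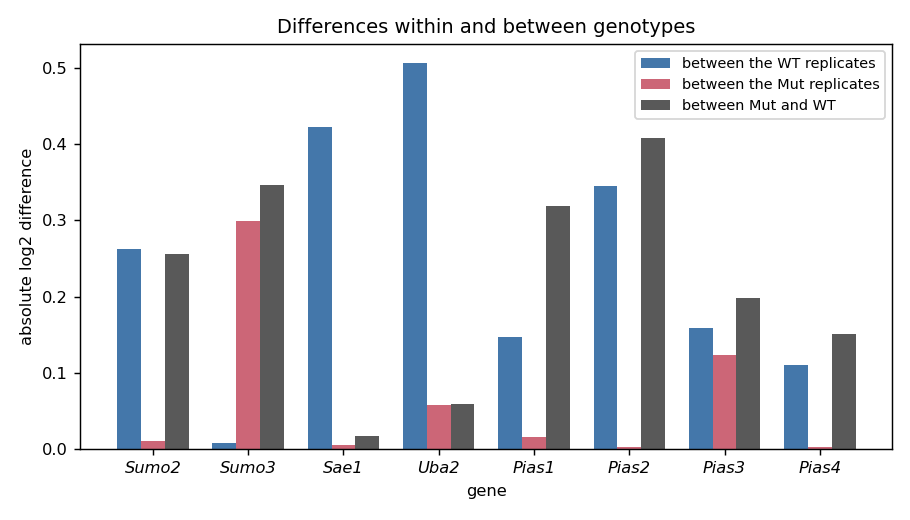
Absolute log2 difference between the WT replicates (blue), between the Mut replicates (red) and between Mut and WT (grey) for each of the 8 genes. The WT bar exceeds the grey bar in Sumo2, Sae1 and Uba2, and the only tall red bar is that of Sumo3, at 0.30.

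The direction of 6 of 8 members was the same under every setting tried. Over the main fit and 11 alternatives, Sumo2, Sumo3, Pias1 and Pias2 were higher in Mut in 12 of 12, and Pias3 and Pias4 were lower in 12 of 12. Their groups do not overlap, so leaving out a library could not turn the sign. Uba2 was higher in 11 of 12 and Sae1 in 3 of 12. The size depended on which WT replicate served as control, the median log2 fold change of the 8 genes being 0.01 without WT replicate 1 and 0.31 without WT replicate 2.

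**Figure D5:**
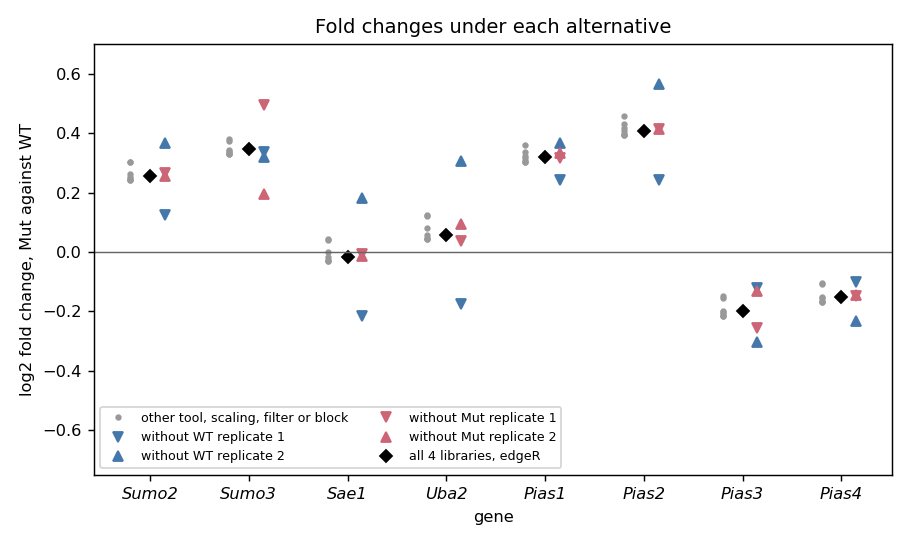
Log2 fold change of Mut against WT for each of the 8 genes with all 4 libraries in edgeR (black diamonds), with each library left out in turn (triangles) and under the other tools, scalings, filters and the replicate block (grey points). Leaving out a WT library moves Sae1 and Uba2 across 0, and leaving out a Mut library moves Sumo3 most, between 0.19 and 0.49.

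The percent of each gene's length covered by reads gave a further readout. Sumo2 was covered over 100% in all 4 samples, and Sae1 over at least 99.7%. Uba2 was covered over 99.6% and 99.7% in WT and 95.8% and 96.2% in Mut, and Pias4 over 99.5% and 100% against 95.5% and 94.2%. These were the 2 members whose coverage was lower in both Mut samples, against 10.7% of all genes.

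The lower coverage of Uba2 and Pias4 in Mut came with more reads on these genes than in WT replicate 1. Uba2 had 1802 and 3313 reads in WT and 3544 and 3186 in Mut, and Pias4 had 764 and 916 against 1014 and 947. Pias1 was the 1 member covered further in both Mut samples, at 92.6% and 93.4% in WT and 96.0% and 96.1% in Mut, against 27.8% of all genes. Sumo3 varied most, at 86.1% and 92.5% in WT and 81.1% and 97.4% in Mut. The coverage was not tested.

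The rest of the pathway was read from a list of 26 other genes, covering ligases, proteases and other parts of the machinery. The list includes the deleted gene Senp6, which had a log2 fold change of -0.56 in edgeR. None of the 26 was called in edgeR, 1 had an unadjusted p under 0.05 against 15.6% of all genes, and 17 were positive against 9 negative. The Mut samples were both above the WT samples in 12 genes and both below in 2, against 25.4% and 22.8% of all genes. The median log2 fold change was 0.106. Of the 9 other ligases on the list, 0 had an unadjusted p under 0.05, and their median size of change was 0.0422, against 0.259 for the 4 PIAS genes.

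The 3 genes of that list with the lowest p were all higher in Mut. Pml, the organiser of nuclear bodies that hold many SUMO-modified proteins, had 16.6 and 19.2 RPKM in WT and 24.7 and 28.5 in Mut. Its log2 fold change was 0.53 (SE 0.13, adjusted p = 0.143 in edgeR), and DESeq2, which called 3.07% of all genes higher, called it at an adjusted p of 0.0443. The SUMO protease gene Senp5 had 7.50 and 9.94 RPKM in WT and 11.1 and 12.0 in Mut (log2 fold change 0.37, adjusted p = 0.333 in edgeR). Desi1, which encodes a protease of another desumoylating family, had 13.2 and 19.4 RPKM in WT and 22.1 and 22.4 in Mut (log2 fold change 0.42, adjusted p = 0.353 in edgeR). Without WT replicate 2 the adjusted p in edgeR was 0.0128 for Pml, 0.0149 for Senp5 and 0.00479 for Desi1, in a fit that called 9.25% of all genes higher and 10.3% lower. Without WT replicate 1 the adjusted p in edgeR was 0.0874, 0.503 and 0.544 in the same order.

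For Pias2, the genes with the most similar profile were sought among 6099 genes with a mean RPKM of at least 10. Likeness was the distance between log2 values centred on each gene's mean over the 4 samples. The nearest were B4galt6 (distance 0.0218), Exosc9 (0.0269) and Acot9 (0.0412), against a median distance of 0.522. The nearest of the other members was Sumo2, at 0.164. With 4 samples these distances are a description only.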

How the data were processed

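Poly(A) RNA of 2 Mut and 2 WT cultures was sequenced by BGI. Deposited for each gene were an unnormalized read count, the RPKM (that count scaled by the listed gene length and the reads on all genes) and the percent of its length that reads covered. A gene missing from a sample's file was taken as 0. The submitters' processing notes name mm9 and SAMtools. The aligner, counter and annotation are not given in the sources used here, nor is the handling of reads that fit several places. Positions and coding sequences were taken from GENCODE on GRCm38 by Entrez Gene identifier, which matched for all 8 genes.

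Counts of the 14123 genes with at least 10 reads in at least 2 samples entered edgeR 4.0.16 under R 4.3.3 (quasi-likelihood F test), with TMM normalization, robust estimation and Benjamini-Hochberg adjustment at 0.05. Fold changes, their standard errors and intervals come from this fit, and differences between replicates from TMM-scaled counts. In the shallowest sample, 10 reads over 2 kb make 0.238 RPKM. Replicates were not copies of each other (chi-square per degree of freedom 48.6 for WT and 23.7 for Mut). Alternatives were DESeq2 1.42.0, RLE size factors, no filter, at least 10 reads in every sample, limma 3.58.1 on log2(RPKM + 1) and log2(RPKM + 0.1), a replicate block, and leaving out each sample. Genes beyond the members were named by rule: Senp6, the 3 pathway genes with the lowest p, and the 3 genes nearest to the member with the lowest p. The members and lists were chosen with earlier results of these data known.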

Additional observations from a re-analysis of the deposited data

How the results depend on the processing

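Of 88 values of the 8 members under the alternatives, 83 kept their direction and side of the threshold, 4 turned sign and 1 (Pias2 without WT replicate 2) passed it. Sae1, at -0.02 (-0.22 to 0.18 without a replicate), became 0.041 on log2(RPKM + 1), 0.042 on log2(RPKM + 0.1) and 0.18 without WT replicate 2, and Uba2, at 0.06, became -0.18 without WT replicate 1. Calls among all genes, 0 in the main fit, were 434 higher and 263 lower with DESeq2 and 225 and 61 with no filter. Leaving out a replicate gave 68 to 1296 higher and 37 to 1444 lower. Members called ranged from 0 to 1 without a replicate, and pathway genes from 0 to 7 (7 without WT replicate 2), with 1 (Pml) under DESeq2. The median log2 fold change of the members ranged from 0.013 to 0.31 without a replicate. The cause was not tested.

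The labels do not say whether samples with the same replicate number were paired. Differences between replicates correlated at -0.06 between genotypes, which cannot show whether they were. With the replicate block 84 genes were called higher and 33 lower, and 0 of 8 members. The biological coefficient of variation was 0.208 between the WT samples and 0.121 between the Mut samples.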
